A study of Mus musculus with 14 samples.

Results

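Chemokines are small secreted proteins that direct the migration of leukocytes, and their receptors sit on the cells that respond. The genes described here are those whose deposited name is Ccl, Ccr, Cxcl or Cxcr followed by a number and at most 1 letter. They number 48 of the 26068 genes listed in the 2 deposited tables: 21 CC ligands, 12 CXC ligands, 10 CC receptors and 5 CXC receptors. The rule used names and no measured value. Of the 48 genes, 45 were listed in the table of the WT libraries, 45 in the table of the libraries labelled Rad KO, and 42 in both.

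The counts come from 14 polyA-enriched RNA-seq libraries of mouse heart ventricle, in 4 groups: 3 WT sham, 4 WT TAC, 3 sham of the Rad knockout (Rad KO) and 4 TAC of the Rad KO. TAC, or transverse aortic constriction, narrows the aortic arch and loads the left ventricle with pressure, and sham animals have the operation without the narrowing. Per the labels, tamoxifen followed TAC by 4 weeks, and the hearts were collected over 2 months past the operation and over 1 month past the knockout. The protocol text is the same for every sample, but whether the WT or sham animals received tamoxifen is not stated apart from it. Rad, the product of Rrad, is a small GTPase and a brake on the L-type calcium channel of heart muscle. The labels name no Cre driver, strain, sex or age, and do not state that each library is a separate animal, so a p-value here measures spread between libraries, which may be technical.

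Chemokines act through G protein-coupled receptors that lower cyclic AMP, mobilise calcium and steer the cell up the gradient. The CC ligands, among them the monocyte attractants Ccl2, Ccl7 and Ccl12 and the eosinophil attractants Ccl11 and Ccl24, bind Ccr receptors. The CXC ligands include Cxcl12, the ligand of Cxcr4, the interferon-induced Cxcl9 and Cxcl10, and the neutrophil attractants Cxcl1, Cxcl2 and Cxcl5. In a pressure-loaded heart, chemokines are known for bringing monocytes and T cells into the tissue, and atypical receptors such as Ackr3 take up chemokines without signalling through G proteins.

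The classes are named for the spacing of the first conserved cysteines. The coding sequences below show that spacing in Ccl11, its neighbour Ccl2 and 6 ligands with a mean of at least 50 counts per library. They are windows of 45 bases, 5′ to 3′, from GENCODE M21 transcripts (GRCm38), with the cysteine codons of the pair in capitals.
Ccl11: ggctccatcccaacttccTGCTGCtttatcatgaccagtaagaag
Ccl2: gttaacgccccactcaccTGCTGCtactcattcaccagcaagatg
Ccl6: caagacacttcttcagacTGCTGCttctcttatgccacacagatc
Ccl9: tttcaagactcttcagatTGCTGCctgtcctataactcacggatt
Cxcl12: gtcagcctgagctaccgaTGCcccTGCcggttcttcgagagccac
Cxcl14: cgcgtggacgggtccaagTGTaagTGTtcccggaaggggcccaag
Cxcl16: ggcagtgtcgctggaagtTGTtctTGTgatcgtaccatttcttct
Cxcl9: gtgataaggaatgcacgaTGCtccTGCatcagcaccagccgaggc
In the CC ligands the codons touch, and in the CXC ligands 1 codon lies between them. Such a pair was found in the coding sequence of all 30 ligands for which the transcript file held a sequence.

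Total counts per library were 14546176 to 23314792, so that 1 count was worth 0.0439 to 0.0736 counts per 1000000 (CPM, scaled over the 14 libraries by TMM). The heart muscle markers Myh6 and Tnnt2 stood at 13563 to 32251 and 3321 to 5377 CPM in every library. Rrad measured 214, 231 and 198.8 CPM in the WT sham libraries and 127, 223, 243 and 208 CPM in the WT TAC libraries, in the order of their numbers. The libraries labelled Rad KO measured 160.4, 182 and 228 CPM in sham and 163, 240.5, 200.4 and 119.6 CPM in TAC. Rad KO against WT gave on the log2 scale -0.17 in sham (SE 0.23, adjusted p = 0.944) and -0.14 in TAC (SE 0.20, adjusted p = 0.93; quasi-likelihood F-test of edgeR, Benjamini-Hochberg over all genes tested, here and below). The sources used here do not give the deleted part of the gene. Since neither passed, these groups are named by their label only, as libraries labelled Rad KO. Esr1, an oestrogen receptor gene, divided libraries of 1 label: 1.27, 1513 and 2217 CPM in WT sham 1 to 3, 2004, 1.11 and 1929 CPM in Rad KO sham 1 to 3, 0.558 to 1.61 CPM in WT TAC and 336 to 2471 CPM in Rad KO TAC. Values without WT sham 2 and 3, or also without Rad KO sham 2, are therefore given beside the calls over both labels and within WT.

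Few of the 48 genes were abundant. A mean of at least 50 counts per library was reached by 10 of them, 11 had a mean of 10 to 50, and 27 had a mean under 10. Cxcl12 alone held 73.3% of all counts of the 48 genes, and Cxcl12 with Cxcl14 held 82.4%. In 26 of the 48 genes at least 1 library that listed the gene had 0 counts. The 6 genes listed in 1 table only (Ccl28, Cxcl11 and Cxcl17 in WT, Ccl27b, Ccr3 and Cxcl15 in Rad KO) had at most 4 counts in all. After the filter on low counts, 23 genes were tested in at least 1 comparison, 17 ligands and 6 receptors, and 21 of them in all 6 comparisons.

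**Figure D1:**
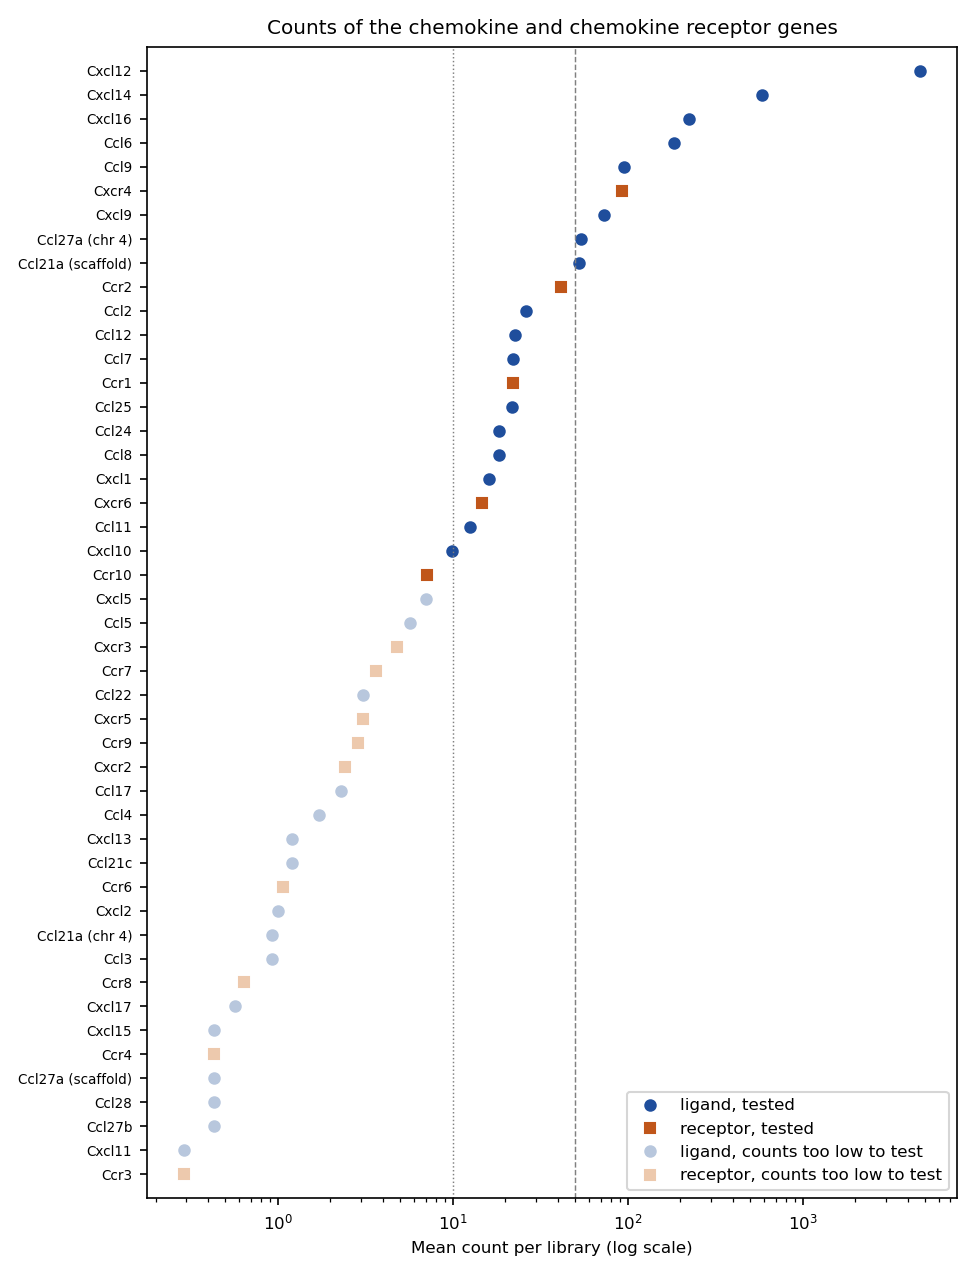
Mean count per library (x axis, log scale) of 47 of the 48 chemokine and chemokine receptor genes, over the libraries that list each. Dark points were tested in at least 1 comparison, pale points had counts too low to test, and the dotted and dashed lines mark means of 10 and 50 counts. Cxcl12 stands alone at 4701 counts.

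Levels of different genes can be set side by side only per length. On the scale of CPM per kilobase of gene model, the median over the 14 libraries was 36.1 for Cxcl12, which retains haematopoietic cells and guides vessels, and 18.9 for Cxcl14, a ligand made by many resting tissues. Next came Ccl6, a ligand made by myeloid cells, at 6.18, the Ccl21a gene on scaffold JH584294.1 at 4.68, Cxcl16, a membrane-bound ligand of Cxcr6, at 4.22, and the receptor Cxcr4 at 2.91. The ranges over libraries were 15.2 to 46.0 for Cxcl12, 8.40 to 42.4 for Cxcl14, 2.24 to 9.92 for Ccl6, 0.733 to 23.4 for Ccl21a, 3.56 to 6.07 for Cxcl16 and 1.93 to 5.26 for Cxcr4. Neighbours in this order therefore overlapped over the libraries, and Cxcl12 and Cxcl16 did not overlap. The deposited FPKM gave the same order for these 6 genes, but it also scales the counts by gene length and is no separate check.

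After TAC, 1 of the 23 tested genes passed the threshold of adjusted p under 0.05, and in 1 contrast: Ccl11 fell over both genotype labels, the mean of the 2 TAC effects in 1 model of all 14 libraries. Over all genes, 4.75% fell and 11.1% changed in that contrast. Of the 23 genes, 4 had an unadjusted p under 0.05, against 26.3% of all genes, and DESeq2 called Ccl11 too, against 13.4%. Within WT, 0 of 22 tested members passed, against 3.09% of all genes, and 2 had an unadjusted p under 0.05, against 17.4% of all genes. DESeq2 called 2 members there, Ccl21a on the scaffold and Cxcl9, against 6.12% of all genes, and the authors' deposited table gives the same 2, against 3.75%. Without the filter on low counts 1 passed, Ccl21a, against 3.22%. Within the libraries labelled Rad KO, 0 of 21 passed, against 1.69% of all genes, and 3 had an unadjusted p under 0.05, against 17.3%. DESeq2 called 1 there, Ccl11, against 5.0% of all genes, as the authors' deposited table does, against 3.01%. The deposited fold changes of the tested members match those of the DESeq2 fit under both labels, so they are no separate test. In WT both called 910 genes, of 24279 listed by the authors and 14859 given an adjusted p here.

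The median log2 fold change of the tested members was -0.29 in WT, 0.19 in the libraries labelled Rad KO and -0.05 over both, beside 0.00, 0.01 and 0.00 for all genes. The sign was positive in 9 of 22 members in WT and in 13 of 21 in the libraries labelled Rad KO. TAC and sham libraries did not overlap for 1 member in WT, Cxcl9, against 16.8% of all genes. They did not overlap for 4 members in the libraries labelled Rad KO, Ccl11, Ccl25 and Cxcl12 lower and Ccr1 higher, against 16.1% of all genes. Over both labels they did not overlap for 0 members, against 2.76% of all genes.

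**Figure D2:**
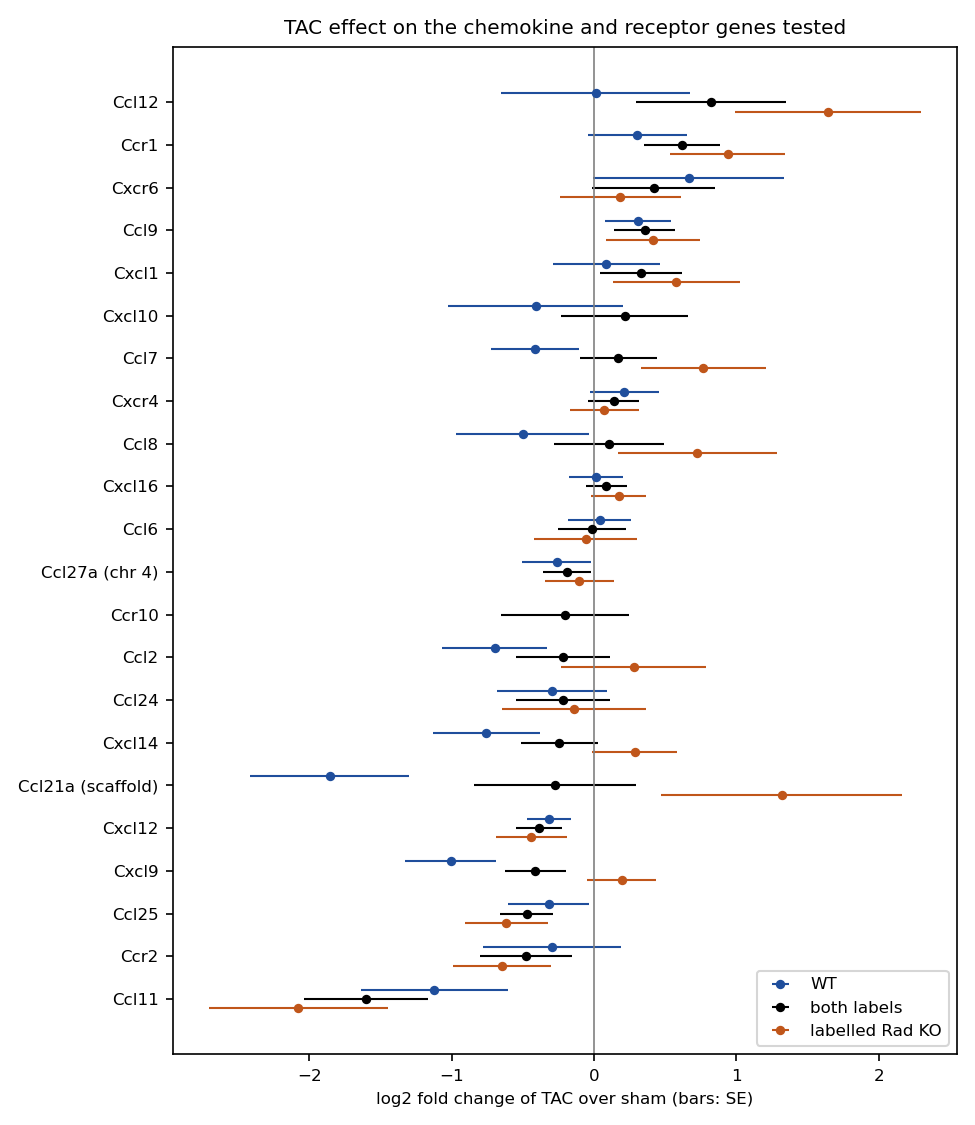
log2 fold change of TAC over sham (x axis) with its SE (bars) for 22 of the 23 tested members, in WT, in the libraries labelled Rad KO and over both labels, ordered by the value over both. A member without a point was not tested in that comparison. Ccl11 lies lowest, at -1.60 over both labels, and Ccl12 and Ccl21a have points far apart in the 2 labels.

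Ccl11 (ENSMUSG00000020676, chromosome 11, 82057823 to 82062955, plus strand, mm10) encodes eotaxin, which attracts eosinophils through Ccr3. It measured 0.877, 0.741 and 1.31 CPM in the WT sham libraries and 0.847, 0.322, 0.167 and 0.462 CPM in the WT TAC libraries, in the order of their numbers. In those labelled Rad KO it measured 1.99, 1.25 and 1.55 CPM in sham and 0.25, 0, 0.491 and 0.756 CPM in TAC. The level was lower in TAC under both labels, with no overlap in the libraries labelled Rad KO and with WT TAC 1 above WT sham 2 in WT. These are few reads: 13 to 27 counts in each of the 6 sham libraries and 0 to 13 in each of the 8 TAC libraries. The 0 in Rad KO TAC 2 allows up to 0.194 CPM, the level of 3 counts, which covers counting error only.

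Over both labels the log2 fold change of Ccl11 was -1.60 (SE 0.44, adjusted p = 0.0273), and DESeq2 gave an adjusted p of 0.00424. The value was -1.12 (SE 0.52, adjusted p = 0.296) in WT and -2.08 (SE 0.63, adjusted p = 0.132) in the libraries labelled Rad KO. The authors' deposited table gives -2.10 with an adjusted p of 0.0477 in Rad KO, and -1.12 with 0.395 in WT. The call over both labels was kept in 8 of 14 fits that left out 1 library, and the adjusted p over the 14 fits ran from 0.0129 to 0.0809. It was lost without WT sham 3 (adjusted p = 0.0809), Rad KO sham 1 (0.0716), Rad KO sham 3 (0.0537), Rad KO TAC 1 (0.0531), WT TAC 2 (0.0524) or WT TAC 3 (0.0512). Without WT sham 2 and 3 the log2 fold change was -1.53 (adjusted p = 0.171), and without these and Rad KO sham 2 it was -1.61 (adjusted p = 0.217).

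In bulk tissue, fewer cells that make a transcript and less of it per cell cannot be told apart. The receptor of Ccl11, Ccr3, had 2 counts in all, both in Rad KO TAC 3, and Siglecf, an eosinophil surface marker, stood at 0 to 0.322 CPM. Of 12 fibroblast markers 6 rose over both labels, Pi16, Postn, Mfap5 and collagen genes, where 937 of 14731 rose over all genes. The summed level of the 12 was 2598 to 3624 CPM in WT sham, 3390 to 5209 in WT TAC, 2664 to 3114 in Rad KO sham and 2772 to 5665 in Rad KO TAC. Pdgfra, also on the list, was not called, at 44.4 to 63.5, 32.9 to 68.9, 52.3 to 71.1 and 40.3 to 68.0 CPM in the same order. Of 9 markers of mural cells, the smooth muscle cells and pericytes of vessels, 2 fell over both labels, against 4.75% of all genes. The summed level of the 9 was 1440 to 1858, 868 to 1444, 1733 to 2222 and 774 to 1835 CPM in the same order. Without WT sham 2 and 3, which leaves 1 WT sham library, the called fibroblast markers had log2 fold changes of 0.85 to 2.89 over both labels. The called mural markers had -0.90 (Acta2) and -0.72 (Abcc9), against -1.70 and -0.59 with every library. None of the genes of either list was at 0 counts in a group, and the part of these cells in the Ccl11 result was not tested.

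Ccl11 lies between other CC ligand genes. Ccl2, Ccl7, Ccl11, Ccl12 and Ccl8 follow each other within 81.2 kb on chromosome 11 (82035571 to 82116799), and 13 of the 48 genes lie on that chromosome. The 4 neighbours had means of 18.4 to 26.3 counts per library, and none passed the threshold in any of the 6 comparisons. Over both labels, the log2 fold change was -0.22 (SE 0.33) for Ccl2, the main attractant of Ccr2-bearing monocytes, 0.17 (SE 0.27) for Ccl7, 0.82 (SE 0.53) for Ccl12 and 0.11 (SE 0.38) for Ccl8. Whether Ccl11 differed from its neighbours in response was not tested.

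For 3 of these neighbours the values within a label had opposite signs, and none passed. For Ccl2 the WT value was -0.70 (SE 0.37) and that of the libraries labelled Rad KO 0.28 (SE 0.51) on the log2 scale. Ccl7 had -0.41 (SE 0.31) and 0.77 (SE 0.44), and Ccl8 had -0.50 (SE 0.47) and 0.73 (SE 0.56). The Rad KO value of Ccl2 turned to -0.0321 without Rad KO sham 1 and to -0.0218 without Rad KO sham 2, and was 1.16 without Rad KO sham 3. That of Ccl8 was 0.22 without Rad KO TAC 3 and 1.44 without Rad KO sham 3, and its WT value turned to 0.52 without WT sham 2 and 3. Ccl12, a mouse monocyte attractant close to Ccl2, had 0.01 (SE 0.66) and 1.64 (SE 0.65), the latter with unadjusted p = 0.03 and adjusted p = 0.23. The WT value of Ccl12 ran from -0.50 without WT TAC 3 to 0.41 without WT sham 2. Its counts ran from 1 in WT TAC 1 to 51 in WT TAC 3 and Rad KO TAC 1, and TAC and sham libraries overlapped under both labels.

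**Figure D3:**
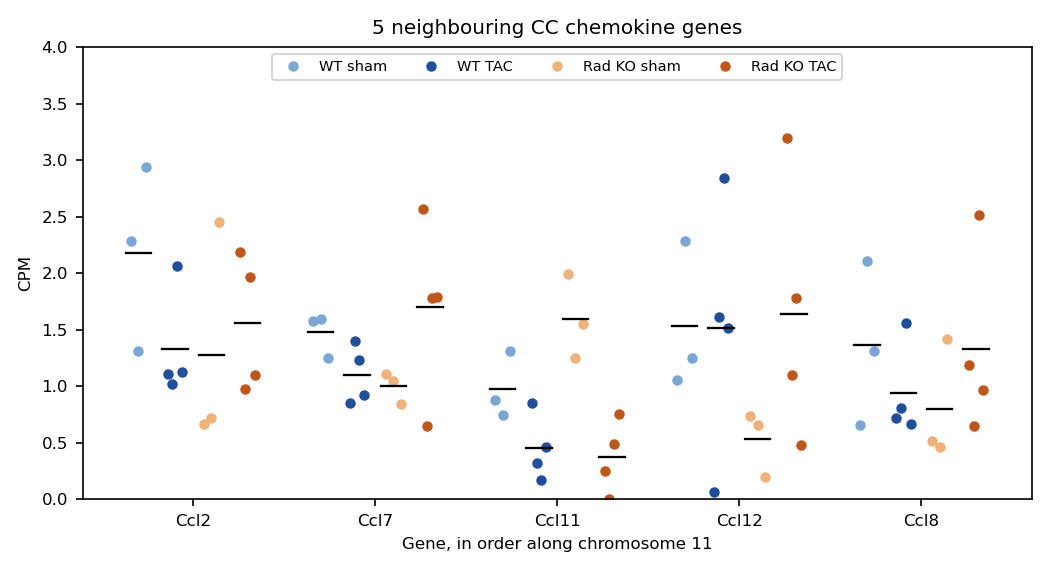
CPM (y axis) of 5 neighbouring CC ligand genes, in their order along chromosome 11, with 1 point per library and a line at each group mean. Ccl11 has its 4 Rad KO TAC points, 0 to 0.756 CPM, below the 3 Rad KO sham points, 1.25 to 1.99 CPM, while the groups of the other 4 genes overlap between TAC and sham under each label.

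Cxcl12 (ENSMUSG00000061353, chromosome 6, 117168535 to 117181367), the most abundant member, binds Cxcr4 and Ackr3. It measured 329, 289 and 349.6 CPM in the WT sham libraries and 281, 262, 189.9 and 300.5 CPM in the WT TAC libraries, in the order of their numbers. Under the Rad KO label it measured 312, 323 and 376 CPM in sham and 304, 124, 286 and 278 CPM in TAC. The sham means were 323 ± 30.6 CPM in WT and 337 ± 34.4 CPM in Rad KO (SD, n = 3), and the TAC means were 258 ± 48.2 and 248 ± 83.4 CPM (SD, n = 4). TAC lay lower on average under both labels, and the groups overlapped in WT only, where WT TAC 4 stood above WT sham 2.

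The log2 fold change of Cxcl12 was -0.32 in WT (SE 0.15, adjusted p = 0.329), -0.44 in the libraries labelled Rad KO (SE 0.25, adjusted p = 0.402) and -0.38 over both (SE 0.16, adjusted p = 0.139), and none passed. Rad KO TAC 2, at less than any other library, moved the second value most: without it the log2 fold change was -0.23. That library was the lowest of its group for 13 of the 23 tested members and the highest for 0, and the members' summed level there was 208 CPM against 384 to 467 CPM in the other 3. Its level of Csf1r, a macrophage receptor, was 21.8 CPM against 36.7 to 48.7 CPM, and that of Pecam1, an endothelial marker, 143 CPM against 164 to 189.8 CPM. The part of these cells in the Cxcl12 value was not tested.

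Cxcl14 (ENSMUSG00000021508, chromosome 13, 56288643 to 56296551) measured 19.7, 68.5 and 34.2 CPM in the WT sham libraries and 36.3, 22.1, 15.3 and 22.1 CPM in the WT TAC libraries, in the order of their numbers. The libraries labelled Rad KO measured 38.7, 32.7 and 38.8 CPM in sham and 77.4, 35.0, 27.9 and 38.1 CPM in TAC. WT sham 2 and Rad KO TAC 1 stood far above the others, and TAC and sham overlapped under both labels. The log2 fold change was -0.76 in WT (SE 0.38, adjusted p = 0.336), 0.28 in the libraries labelled Rad KO (SE 0.30, adjusted p = 0.672) and -0.24 over both (SE 0.27, adjusted p = 0.611). In WT it turned to 0.29 without WT sham 2 and 3, the libraries high in Esr1.

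Cxcl9 (ENSMUSG00000029417, chromosome 5, 92321347 to 92328079) attracts Cxcr3-bearing T cells and is induced by interferon gamma. It measured 5.0, 9.69 and 4.44 CPM in the WT sham libraries and 3.19, 3.44, 1.90 and 4.09 CPM in the WT TAC libraries, in the order of their numbers. In those labelled Rad KO it measured 2.95, 4.72 and 4.13 CPM in sham and 5.70, 3.82, 4.85 and 3.64 CPM in TAC. In WT every TAC library lay below every sham library, and in the libraries labelled Rad KO the groups overlapped.

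The log2 fold change of Cxcl9 in WT was -1.01 (SE 0.32, adjusted p = 0.132), short of the threshold, while the authors' deposited table gives -1.01 with an adjusted p of 0.0486 for the same contrast. It was 0.20 (SE 0.24, adjusted p = 0.73) in the libraries labelled Rad KO and -0.41 (SE 0.21, adjusted p = 0.231) over both. Without WT sham 2, the highest library, the WT value was -0.58, and without WT sham 2 and 3 it was -0.66. Of 17 interferon-stimulated genes tested in WT 2 fell, the GTPase genes Igtp (-1.13, SE 0.23, adjusted p = 0.029) and Iigp1 (-0.57, SE 0.13, adjusted p = 0.0443), against 3.09% of all genes called, and 0 of 18 passed in the libraries labelled Rad KO. Both calls were lost without WT sham 2 and 3 (Igtp -0.69, adjusted p = 0.675, and Iigp1 -0.81, adjusted p = 0.382), where 0 of all genes tested passed. The list's summed level was 249.7 to 303 CPM in WT sham, 197 to 265 CPM in WT TAC, 188 to 244 CPM in Rad KO sham and 196 to 374 CPM in Rad KO TAC. Cxcl10, the other interferon-induced ligand tested, had 1 to 21 counts per library, with a WT log2 fold change of -0.41 (SE 0.61) that turned to 0.26 without WT sham 2 and 3.

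The name Ccl21a is carried by 2 listed genes, and Ccl21, made by lymphatic vessels and lymph node stroma, is the ligand of Ccr7. The gene on scaffold JH584294.1 (ENSMUSG00000095320, 121048 to 121713) held 734 counts, while the gene on chromosome 4 held 13 and Ccl21c 17. The chromosome 4 coding sequence matched that of GENCODE's Ccl21b at 400 of 402 bases. No sequence was found for the scaffold gene or Ccl21c, so these were not compared. Whether the counting split reads between the copies is not known, and the values of 1 copy are uncertain. The scaffold gene measured 7.77, 1.37 and 5.06 CPM in the WT sham libraries and 1.76, 0.484, 2.01 and 0.990 CPM in the WT TAC libraries, in the order of their numbers. Under the Rad KO label it measured 0.295, 0.525 and 4.64 CPM in sham and 4.13, 4.08, 0.921 and 9.42 CPM in TAC. Libraries of the same group differed several-fold, and TAC and sham overlapped under both labels.

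Its log2 fold change was -1.86 in WT (SE 0.56, adjusted p = 0.114), 1.32 in the libraries labelled Rad KO (SE 0.84, adjusted p = 0.46) and -0.27 over both (SE 0.57, adjusted p = 0.803). The authors' deposited table gives -1.85 with an adjusted p of 0.0142 in WT. In the edgeR fit with the replicate number as a block the WT value was -1.67 with an adjusted p of 0.028. Without WT sham 2 and 3, which leaves 1 WT sham library, it was -2.56. The value of the libraries labelled Rad KO was 3.45 without Rad KO sham 3, and ran from 0.73 to 1.66 when 1 of the other 6 was left out. The vessel markers Flt4 and Lyve1, both high in lymphatic endothelium, stood at 23.4 to 40.9 and 8.16 to 26.4 CPM over all libraries. Lyve1 is also on the macrophage and monocyte list used below, so its level is not that of lymphatic cells alone. Of 14 endothelial markers over both labels 1 rose (Pdpn, 0.81) and 1 fell (Prox1, -0.31), against 11.1% of all genes changed. Prox1 stood at 75.0 to 111 CPM over all libraries, above both Flt4 and Lyve1. The cells that make it cannot be told apart in bulk tissue, so its fall is not read as one of lymphatic cells. Without WT sham 2 and 3, which leaves 1 WT sham library, Pdpn had 1.14 and Prox1 -0.36. The part of lymphatic cells in the Ccl21a values was not tested.

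The other ligands with a mean of at least 50 counts were Cxcl16, Ccl6, Ccl9 and Ccl27a, and none passed. Cxcl16 (chromosome 11, 70453983 to 70459984), the ligand of Cxcr6, had 15.8, 13.1 and 11.6 CPM in WT sham, 10.7, 18.3, 13.8 and 11.4 in WT TAC, 11.9, 13.4 and 12.4 in Rad KO sham, and 18, 11.1, 16.4 and 11.1 in Rad KO TAC. Ccl6 (chromosome 11, 83587882 to 83593087) had 8.78, 12.7 and 11 CPM in WT sham, 11.2, 15.3, 10.2 and 7.39 in WT TAC, 10.4, 13.3 and 11.2 in Rad KO sham, and 12.5, 4.02, 17.8 and 10.4 in Rad KO TAC. For both genes the TAC values spread to both sides of the sham values. The log2 fold change over both labels was 0.09 (SE 0.14, adjusted p = 0.744) for Cxcl16 and -0.01 (SE 0.24, adjusted p = 0.977) for Ccl6. Cxcl16 shares 552 exonic bases with Zmynd15 on the opposite strand, and the sources used here do not give the strand setting of the counting, so their reads may mix.

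Ccl9 (chromosome 11, 83572919 to 83578636), a ligand of Ccr1 in mouse, had 4.74, 4.56 and 4.81 CPM in WT sham, 4.49, 8.49, 4.96 and 5.21 in WT TAC, 4.49, 6.95 and 4.58 in Rad KO sham, and 9.33, 3.17, 8.04 and 7.91 in Rad KO TAC. Most TAC libraries lay above the sham libraries of their label, with WT TAC 1 and Rad KO TAC 2 below them. Its log2 fold change was 0.31 (SE 0.23) in WT, 0.41 (SE 0.33) in the libraries labelled Rad KO and 0.35 (SE 0.22, adjusted p = 0.317) over both. Ccl27a on chromosome 4 (41769467 to 41774247), known as a skin T cell attractant, had 2.81, 3.82 and 4.00 CPM in WT sham, 2.28, 2.58, 3.29 and 3.56 in WT TAC, 4.12, 3.15 and 3.61 in Rad KO sham, and 3.94, 3.37, 2.33 and 3.85 in Rad KO TAC. The groups overlapped, with a log2 fold change of -0.19 (SE 0.17, adjusted p = 0.51) over both labels. Its coding sequence matched that of Ccl27b at 360 of 363 bases, and it shares 8 exonic bases with Il11ra1, so its reads are uncertain too.

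Among the ligands with a mean of 10 to 50 counts outside the chromosome 11 group, Ccl25, a ligand of Ccr9 made by thymus and intestine, had 1.37 to 1.62 CPM in WT sham, 1.00 to 1.45 in WT TAC, 1.55 to 1.68 in Rad KO sham and 0.907 to 1.29 in Rad KO TAC. Its log2 fold change over both labels was -0.47 (SE 0.18, unadjusted p = 0.0213, adjusted p = 0.113), and it shares 204 exonic bases with Elavl1 on the opposite strand. Ccl24, the second eosinophil attractant tested, had -0.22 (SE 0.33), and Cxcl1, a neutrophil attractant, 0.33 (SE 0.29). Several other inflammatory ligands did not pass the filter on low counts. The means per library were 5.71 counts for Ccl5, 1.71 for Ccl4, 0.93 for Ccl3, 1.0 for Cxcl2 and 7.0 for Cxcl5.

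Of the 15 receptors 6 were tested, and none passed the threshold in any of the 6 comparisons. Cxcr4 (chromosome 1, 128588199 to 128592293), the receptor of Cxcl12, had 5.70, 5.07 and 5.44 CPM in WT sham, 4.95, 9.51, 5.58 and 4.88 in WT TAC, 5.01, 5.64 and 4.84 in Rad KO sham, and 6.07, 3.5, 7.18 and 4.95 in Rad KO TAC. WT TAC 2 stood alone at the top, and the groups overlapped, with a log2 fold change of 0.14 over both labels (SE 0.18, adjusted p = 0.667).

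Ccr2, the monocyte receptor of Ccl2, had a mean of 41.5 counts and a log2 fold change of -0.48 over both labels (SE 0.32, adjusted p = 0.371). Ccr1, a receptor of monocytes and neutrophils, had 0.921 to 2.05 CPM in WT sham, 1.32 to 1.82 in WT TAC, 0.580 to 0.884 in Rad KO sham and 0.894 to 2.00 in Rad KO TAC. The libraries labelled Rad KO did not overlap, with a log2 fold change of 0.94 (SE 0.41, unadjusted p = 0.0422, adjusted p = 0.268), and over both labels it was 0.62 (SE 0.27, adjusted p = 0.155). Cxcr6, the T cell receptor of Cxcl16, had 0.42 (SE 0.43) and Ccr10 -0.21 (SE 0.45). The lymphocyte receptors Cxcr3, Ccr7 and Cxcr5 had means of 4.79, 3.64 and 3.07 counts, and the neutrophil receptor Cxcr2 of 2.43 counts, too few to test.

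**Figure D4:**
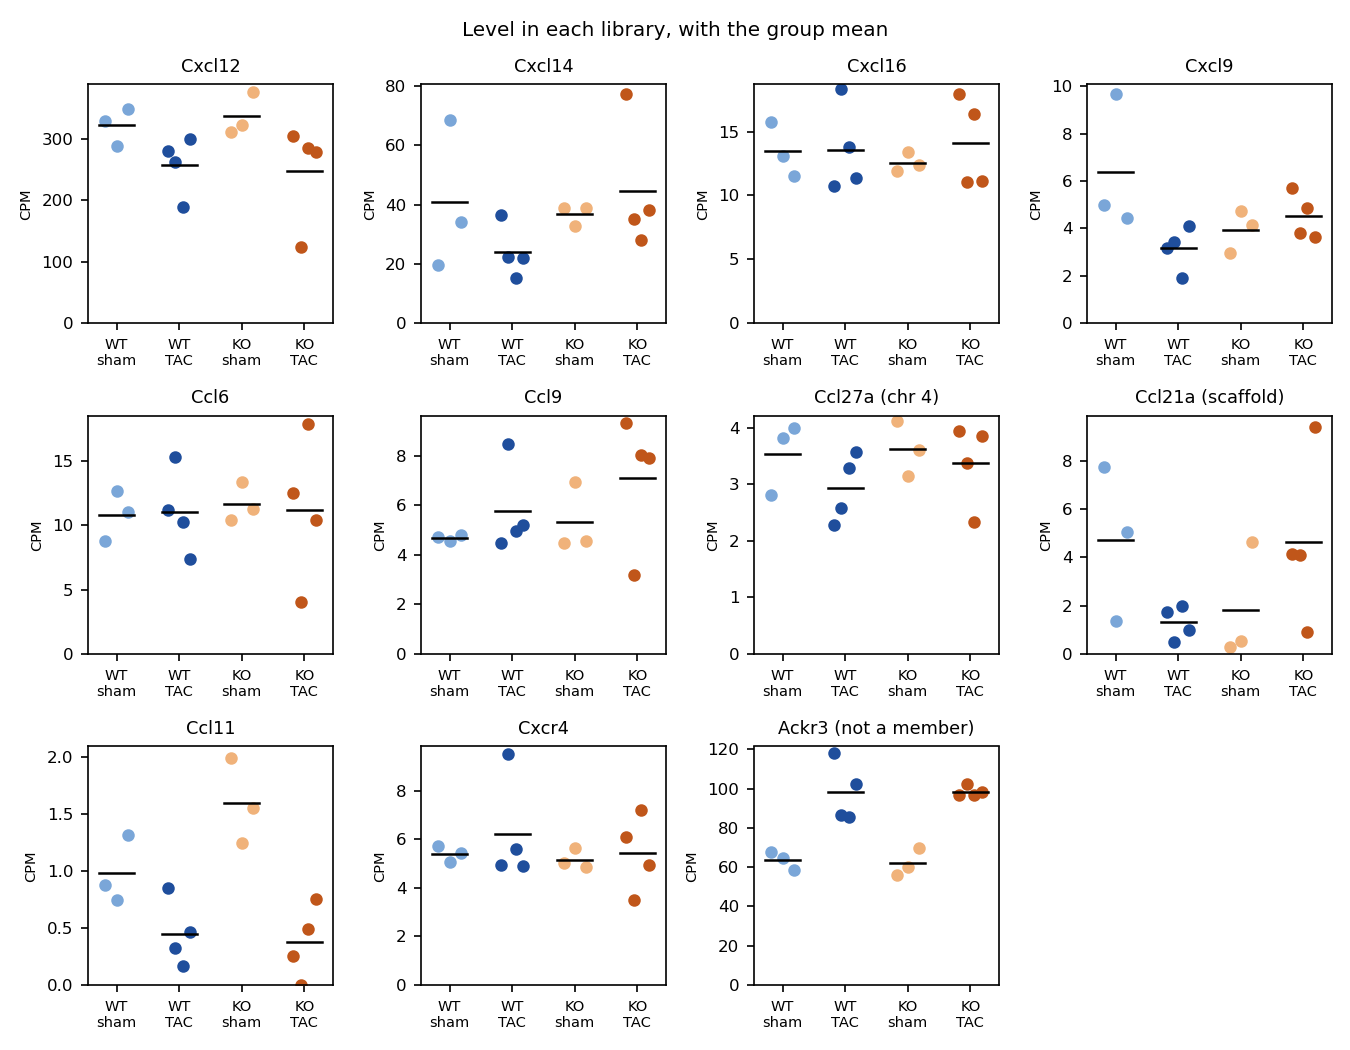
CPM (y axis) in each library of the 10 members given in full and of Ackr3, an atypical receptor of Cxcl12 that is not among the 48 genes; points are libraries and lines are group means. Ackr3 has its 8 TAC points, 85.5 to 118 CPM, above its 6 sham points, 56.3 to 69.9 CPM, whereas for the members the TAC and sham points of both labels together overlap.

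The libraries labelled Rad KO were set against WT within each operation. In sham 0 of 23 members passed, against 0.0% of all genes, and 1 had an unadjusted p under 0.05, against 5.75%: Cxcl9, with -0.68 (SE 0.32, adjusted p = 0.831). DESeq2 gave an adjusted p there to 10 of the 23 members and called 0 of them, against 0.132% of all genes. Sham libraries of the 2 labels did not overlap for 5 members, Ccr1, Cxcl10, Ccl12 and Ccl7 lower and Ccr10 higher in the libraries labelled Rad KO, against 15.9% of all genes. In TAC 0 of 23 members passed by edgeR and by DESeq2, against 0.0136% and 0.627% of all genes, and 2 had an unadjusted p under 0.05, against 7.76%. These were Cxcl14, with 0.90 (SE 0.36, adjusted p = 0.517), and Ccl21a on the scaffold, with 1.82 (SE 0.77, adjusted p = 0.564). TAC libraries of the 2 labels overlapped for all 23 members, where 3.69% of all genes did not overlap.

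Whether the TAC effect differed between the labels was tested as an interaction. By edgeR and by DESeq2 0 of 23 members passed, against 0.0% and 0.0271% of all genes. An unadjusted p under 0.05 was reached by 3 members, against 5.12% of all genes. These were Ccl21a on the scaffold (3.17, SE 1.15, adjusted p = 0.857, and 5.31 without Rad KO sham 3), Cxcl9 (1.2, SE 0.43, adjusted p = 0.85) and Ccl7 (1.17, SE 0.54, adjusted p = 0.949). For Ccl11 the TAC effects of the 2 labels were therefore not shown to differ.

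Chemokine-system genes with other names include atypical receptors and the CX3C ligand. Of 17 such genes 15 were tested, and over both labels 6 rose and 1 fell, against 11.1% of all genes changed, with a median log2 fold change of 0.30 beside 0.00 for all genes. Within WT and within the libraries labelled Rad KO, 1 of 15 rose, the same gene. The list was chosen with earlier results of these data known, and whether it stands apart from other genes was not tested.

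That gene was Ackr3, an atypical receptor that binds Cxcl12 and Cxcl11 and clears them from the tissue without G protein signalling. It measured 67.9, 64.5 and 58.8 CPM in the WT sham libraries and 118, 86.7, 85.5 and 102.4 CPM in the WT TAC libraries, in the order of their numbers. The libraries labelled Rad KO measured 56.3, 59.9 and 69.9 CPM in sham and 96.6, 102.3, 96.6 and 98.3 CPM in TAC. All 8 TAC libraries lay above all 6 sham libraries. Ackr3 rose in WT by 0.63 on the log2 scale (SE 0.13, adjusted p = 0.0335), in the libraries labelled Rad KO by 0.67 (SE 0.09, adjusted p = 0.0149) and over both by 0.64 (SE 0.08, adjusted p = 0.000496). The call over both labels was kept in each of 14 fits that left out 1 library, without WT sham 2 and 3 (0.60, adjusted p = 0.0208), and without these and Rad KO sham 2 (0.58, adjusted p = 0.0471). Within WT it was lost without WT TAC 4 (adjusted p = 0.0516) or any 1 of WT sham 1, 2 and 3 (0.071, 0.126 and 0.188). In the fits without a WT sham library 1.66%, 0.623% and 0.102% of all genes passed, against 3.09% with every library. Without WT sham 2 and 3, which leaves 1 WT sham library, the log2 fold change of Ackr3 was 0.54. Within the libraries labelled Rad KO the call was lost without sham 1 (0.0816) or sham 2 (0.105). There 0.0762% and 0.0625% of all genes passed, against 1.69% with every library.

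Ackr4, which clears Ccl19, Ccl21 and Ccl25, rose by 0.91 over both labels (SE 0.18, adjusted p = 0.00574). Its range was 3.38 to 5.70 CPM in WT sham, 5.28 to 11.8 in WT TAC, 3.87 to 4.71 in Rad KO sham and 5.76 to 8.26 in Rad KO TAC. Cx3cl1, the membrane-bound chemokine fractalkine, rose by 0.70 (SE 0.16, adjusted p = 0.0115). Its range was 13.5 to 17.3 CPM in WT sham, 18.7 to 31.4 in WT TAC, 10.8 to 15.3 in Rad KO sham and 15.7 to 27.9 in Rad KO TAC, so that TAC and sham did not overlap within either label. Both calls were kept in each of 14 fits that left out 1 library. Without WT sham 2 and 3 the adjusted p was 0.0271 for Ackr4 and 0.0782 for Cx3cl1, and without these and Rad KO sham 2 it was 0.0591 and 0.0979.

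The other 4 calls were lost in some of these fits. Mif, a cytokine that also binds Cxcr2 and Cxcr4, rose by 0.45 (adjusted p = 0.0248), with the call lost without WT sham 3 or Rad KO sham 1. Cmklr1, the chemerin receptor, rose by 0.61 (adjusted p = 0.0349), and the call was kept in 5 of 14 fits that left out 1 library. Ackr2, which clears inflammatory CC chemokines, rose by 0.64 (adjusted p = 0.0496) and was kept in 3 of 14. Ccrl2, which binds chemerin without signalling, fell by 0.39 on the log2 scale (adjusted p = 0.0326) and was kept in 6 of 14. Without WT sham 2 and 3, which leaves 1 WT sham library, the log2 fold changes of these 4 were 0.42, 0.58, 0.65 and -0.38, in the same order.

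Transcripts of receptor signalling genes and of markers of cells that carry the receptors were read from further lists. No signalling activity was measured. Of 27 tested genes of receptor signalling and leukocyte migration 2 rose over both labels, Pik3r5, a regulatory subunit of PI3K gamma (1.02, adjusted p = 0.0115), and the kinase gene Ptk2b (0.88, adjusted p = 0.017), and 1 fell, Rgs2, which shortens G protein signals (-0.45, adjusted p = 0.0342). These 3 are 11.1% of the 27, the same share as over all genes. Of 15 inflammatory cytokine, NF-kappaB and adhesion genes tested, 3 rose over both labels, against 937 of 14731 over all genes. These were Relb (0.51, adjusted p = 0.0296), Tnfrsf1a (0.29, adjusted p = 0.0348) and Csf1 (0.32, adjusted p = 0.0485). Without WT sham 2 and 3, which leaves 1 WT sham library, Pik3r5, Ptk2b and Rgs2 had log2 fold changes of 1.34, 0.81 and -0.51. Relb, Tnfrsf1a and Csf1 had 0.51, 0.28 and 0.37. By the edgeR test 0 of 16 macrophage and monocyte markers tested passed over both labels, with a median of 0.15. The summed level of all 18 listed was 329 to 427 CPM in WT sham, 303 to 448 in WT TAC, 297 to 326 in Rad KO sham and 201 to 454 in Rad KO TAC. Of 4 lymphocyte markers tested 1 rose, the B cell gene Ms4a1 (1.93, SE 0.56, adjusted p = 0.0383), against 937 of 14731 over all genes. Without WT sham 2 and 3, which leaves 1 WT sham library, the log2 fold change of Ms4a1 was 1.29. Of the dendritic cell markers 0 of 5 passed, and of the neutrophil markers 0 of 2. The summed level of 14 lymphocyte markers was 2.45 to 6.34 CPM over all libraries.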

How the data were processed

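The 14 libraries were grouped and numbered per the labels. Per the file headers, the authors deposited 2 tables, 1 for each genotype label, with a count for every gene in every library. The deposited normalized signal and FPKM values, and the authors' log2 fold change, p-value and adjusted p-value of TAC over sham, stand in the same tables, per the file headers. The submitters' processing notes name HISAT2, DESeq2, edgeR and mm10. The sources used here do not give their versions, the read counter or its strand setting. There were 0 per-sample columns without a sample.

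Deposited counts were tested. A TAC effect within a label used that label's 7 libraries, and the other comparisons came from 1 model of 4 groups on the genes in both tables, with edgeR 4.0.16 in R 4.3.3 (quasi-likelihood F-test, TMM factors, filterByExpr at 10 counts and 15 in total, Benjamini-Hochberg over all genes tested, threshold 0.05). The fits were tested on simulated data. CPM are counts per 1000000 after TMM across all libraries, and floors cover counting error only. Coding windows were read with Biopython 1.88 in Python 3.11.15, and figures were drawn with matplotlib 3.10.9.

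The name rule used no value, but the gene family and the lists were chosen with earlier results of these data known. Values in every library are given for each member past the threshold or with a mean of at least 50 counts, except 1 that enters the counts of members but is not reported here, and up to 3 genes are named per other list and comparison. The 7 called genes of the other chemokine-system list were all named, 4 of them after their values were seen. The alternatives were no filter on low counts, DESeq2 1.42.0 or its size factors in edgeR, a block for the replicate number, the 4-group model for each TAC effect, stricter thresholds, and leaving out each library in turn, or the sham libraries set apart by Esr1.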

Additional observations from a re-analysis of the deposited data

Results flagged for a closer look

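In 4 of 46 groups of 4 libraries examined, 1 library stood far from the other 3, where chance gives about 1 in 20. The 46 groups share the same 8 TAC libraries and are not independent. Whether 4 is more than chance gives was not tested. Ccl2 was 2.06 CPM in WT TAC 3 against 1.02 to 1.12 CPM in the other WT TAC libraries. Ccl8, which lies in the same group of genes on chromosome 11, was 1.56 CPM in WT TAC 3 against 0.660 to 0.806 CPM. Cxcr4 was 9.51 CPM in WT TAC 2 against 4.88 to 5.58 CPM. Cxcl12 was 124 CPM in Rad KO TAC 2 against 278 to 304 CPM in the other Rad KO TAC libraries.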

How the results depend on the processing

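The members' counts were too low to test for 25 of 48 genes, and the depth, the few libraries and the Esr1 split of the sham groups limit the rest. In WT the count of members called was 0, and it was 2 with DESeq2, 1 with no filter on low counts and 1 with the replicate block, where 3.77% of all genes passed. In the libraries labelled Rad KO it was 0, and 1 with DESeq2. Over both labels it was 1, and 0 without WT sham 2 and 3 (2.17% of all genes), 0 without these and Rad KO sham 2 (0.927%), 0 at an adjusted p under 0.01, and 0 to 1 when 1 library was left out. The other 3 comparisons had 0 members called under every alternative run. Sham and TAC libraries with the same number had correlations of their deviations from -0.03 to 0.142, so the numbers were not taken to pair the libraries, and a block changed no other count. The cause of these moves was not tested.

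Over the members' log2 fold changes that are named or had an unadjusted p under 0.05, 943 values were recomputed under an alternative and 58 changed sign, all of values that had not passed the threshold. With the replicate block Ccl6 and Ccr10 over both labels were 0.0750 and 0.0307, and Ccl12 in WT -0.37 (-0.0017 with DESeq2). Without WT sham 2 and 3, the WT values were 0.29 for Cxcl14, -0.21 for Cxcl16, 0.52 for Ccl8, 0.26 for Cxcl10 and 0.0658 for Ccl27a, with or without Rad KO sham 2. Over both labels they were 0.28 for Cxcl14, -0.0268 for Cxcl16 and 0.13 for Ccl6, and, without Rad KO sham 2 as well, 0.24 for Cxcl14, -0.0040 for Cxcl16 and 0.19 for Ccl6. In the libraries labelled Rad KO the last setting gave 0.0391 for Ccl6 and -0.0218 for Ccl2.

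Leaving out 1 library gave, in WT, -0.16 to 0.19 for Ccl6, -0.50 to 0.41 for Ccl12, -0.70 to 0.0171 for Cxcl10, -0.17 to 0.14 for Cxcl16 and -0.0637 to 0.31 for Cxcr4. In the libraries labelled Rad KO it gave -0.0321 to 1.16 for Ccl2, -0.21 to 0.0425 for Ccl27a, -0.37 to 0.21 for Ccl6, -0.13 to 0.46 for Cxcl14 and -0.0867 to 0.23 for Cxcr4. Over both labels it gave -0.57 to 0.79 for Ccl21a on the scaffold, -0.37 to 0.22 for Ccl2, -0.15 to 0.46 for Ccl8, -0.17 to 0.12 for Ccl6, -0.45 to 0.0551 for Cxcl14, -0.0035 to 0.15 for Cxcl16 and -0.0020 to 0.22 for Cxcr4. Rrad in Rad KO against WT in TAC ran from -0.31 to 0.0105, turning positive without Rad KO TAC 4. The TAC effects of Ccl11 kept their negative sign under every alternative run.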

Other observations

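Of the 48 genes, 9 lie on chromosome 5 and 9 on chromosome 9, beside the 13 on chromosome 11. The chromosome 9 genes are all receptors, and 5 of those 9 had a mean under 10 counts per library.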
